A study of Mus musculus with 12 samples.

Results

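The genes of glycosylphosphatidylinositol (GPI) anchoring were followed through mRNA bound to ribosomes at the endoplasmic reticulum (ER) of mouse embryonic stem cells. The set was given as a list of 32 gene symbols grouped by function, proposed with earlier results of these data known, and all 32 were found among the 55416 genes listed. It holds 25 enzymes and subunits that build, attach or remodel the anchor and 7 proteins that carry one. All 32 passed the filter on low counts, which kept 17702 genes.

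The cells were of the E14Tg2a.4 line, and every group shared an Rpl31 protein (a large-subunit ribosomal protein) that carries a FLAG-TEV-AviTag, so the results come from 1 parental line. ALIBi, a system for proximity labelling, was aimed at the ER to biotinylate tagged ribosomes there, and these were captured by affinity for poly-A RNA sequencing. Whole-cell RNA came from the lysates themselves, set aside before the capture. Each culture had been given either scramble siRNA or siRNA to Lsg1, which encodes a GTPase that acts in maturation of the large ribosomal subunit. The 12 libraries form 4 groups of 3 biological replicates: ER-bound scramble, whole-cell scramble, ER-bound Lsg1 and whole-cell Lsg1.

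A GPI anchor is a glycolipid that is assembled stepwise on the ER membrane, beginning on the cytosolic face and ending on the lumenal face. A transamidase complex swaps the C-terminal signal of a newly made protein for the finished anchor, which is then trimmed in the ER and Golgi on the way to the cell surface. Embryonic stem cells are well known for one such protein, the alkaline phosphatase used to stain their colonies.

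Libraries held 38092178 to 56522114 reads assigned to genes, and the first principal component (68.5% of the variance) separated ER-bound from whole-cell libraries. All 10 embryonic stem cell markers exceeded 1 CPM (counts scaled to library size by TMM), with summed levels of 8360 to 11300 CPM. Of 12 fibroblast markers 5 did so, with Lum at 0 in every library and sums of 551 to 591 CPM in whole-cell and 686 to 735 CPM in ER-bound libraries. In whole-cell scramble libraries Fn1 (338 CPM) and Vim (231 CPM) held most of that sum. The others above 1 CPM were Col1a1 (4.46), Pdgfrb (3.33) and Col6a2 (1.28). Of 10 primitive endoderm markers 8 exceeded 1 CPM, with sums of 188 to 232 CPM, mostly Lamb1 (149 CPM), Lama1 (43.1 CPM) and Col4a1 (24.5 CPM) in whole-cell scramble libraries. Whether other cell types had a part in the results was not tested. Lsg1 itself stood at 142.5 to 150.9 CPM in ER-bound scramble libraries and 35.4 to 52.5 CPM with its siRNA, a log2 fold of -1.77 (edgeR adjusted p = 6.28e-08). In whole-cell RNA it stood at 136 to 148.6 CPM and 83.5 to 113.7 CPM, which did not pass (log2 fold -0.55, edgeR adjusted p = 0.245).

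In whole-cell RNA of scramble cells the members spanned a wide range. Per kilobase of transcript, the alkaline phosphatase Alpl stood highest at 60.7 ± 1.06 CPM per kilobase (SD, n = 3), followed by the anchored surface protein Ly6e at 35.3 ± 0.77 CPM per kilobase. The mannosyltransferase partner Pigx was next at 30.0 ± 0.76 CPM per kilobase, by a transcript of 818 bases, while its exons cover 2398 bases. The transamidase subunit Pigt (23.3 ± 0.96 CPM per kilobase) and the ethanolamine phosphate transferase partner Pigf (22.2 ± 0.68 CPM per kilobase) followed, and the gap between this pair was smaller than the sum of their SDs. The catalytic subunit Piga stood mid-range at 10.9 ± 0.07 CPM per kilobase. At the low end were the complement inhibitor Cd59a at 1.00 ± 0.13 CPM per kilobase and Pigz, the enzyme that adds the fourth mannose, at 0.12 ± 0.02 CPM per kilobase. Pigz was the sole member under 1 CPM in these libraries, so its values below are imprecise. These are bulk samples, in which fewer cells that make an mRNA and less of it per cell cannot be told apart.

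**Figure D1:**
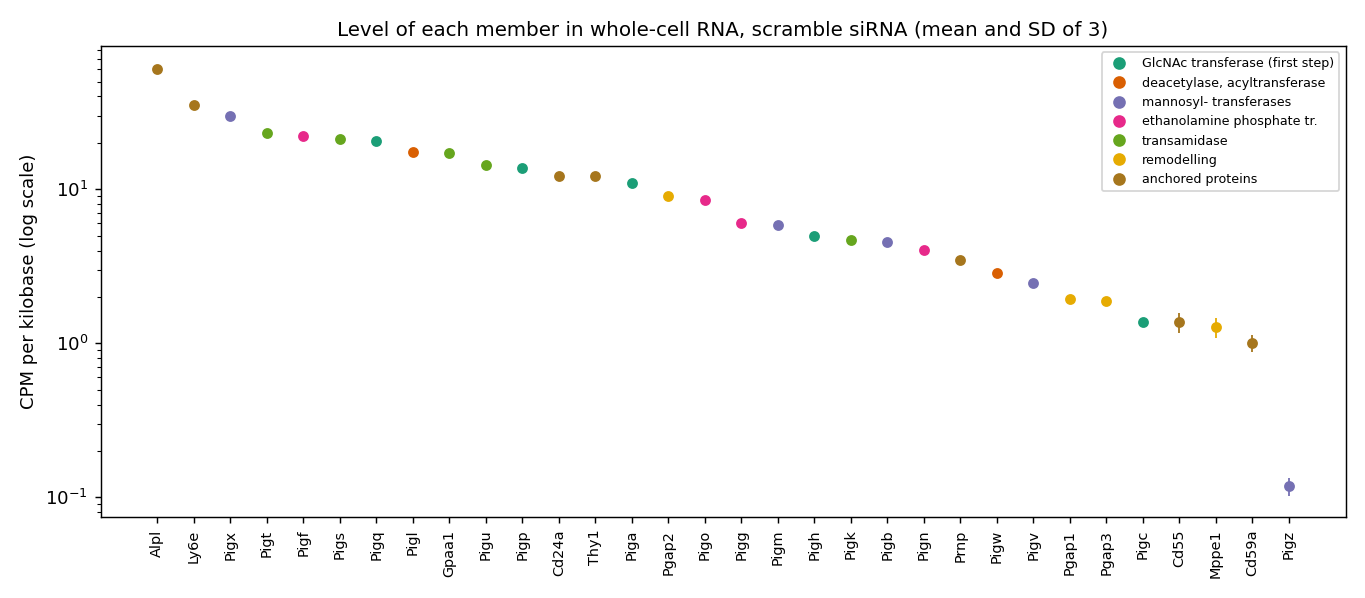
Level of each of the 32 members in whole-cell RNA of scramble cells, in CPM per kilobase of transcript on a log axis; points are means of 3 replicates, bars are SD and colours mark the role. Alpl and Ly6e stand highest and Pigz lies far below all others.

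The first question was which of these mRNAs were carried more by ER-labelled ribosomes than their share of whole-cell RNA. In scramble cells 24 of the 32 members were higher on ER-labelled ribosomes, 3 were lower (Piga, Pigm and Pgap1) and 5 did not pass (Pigb, Pigg, Pign, Pigw and Pigz). By the same test, edgeR's quasi-likelihood F-test with Benjamini-Hochberg adjustment and a threshold of 0.05, 29.8% of all tested genes were higher and 29.1% were lower. The members' median log2 fold was 0.66, against 0.03 for all tested genes, and their summed level was 1390 CPM in ER-bound scramble libraries and 898 CPM in whole-cell ones. In 24 members the lowest ER-bound library lay above the highest whole-cell library, and in 3 the order was the opposite, separations seen for 32.6% and 31.4% of tested genes. RNA of all ribosomes was not sequenced in these 12 libraries, so the ribosome load of an mRNA and its place at the ER cannot be told apart.

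**Figure D2:**
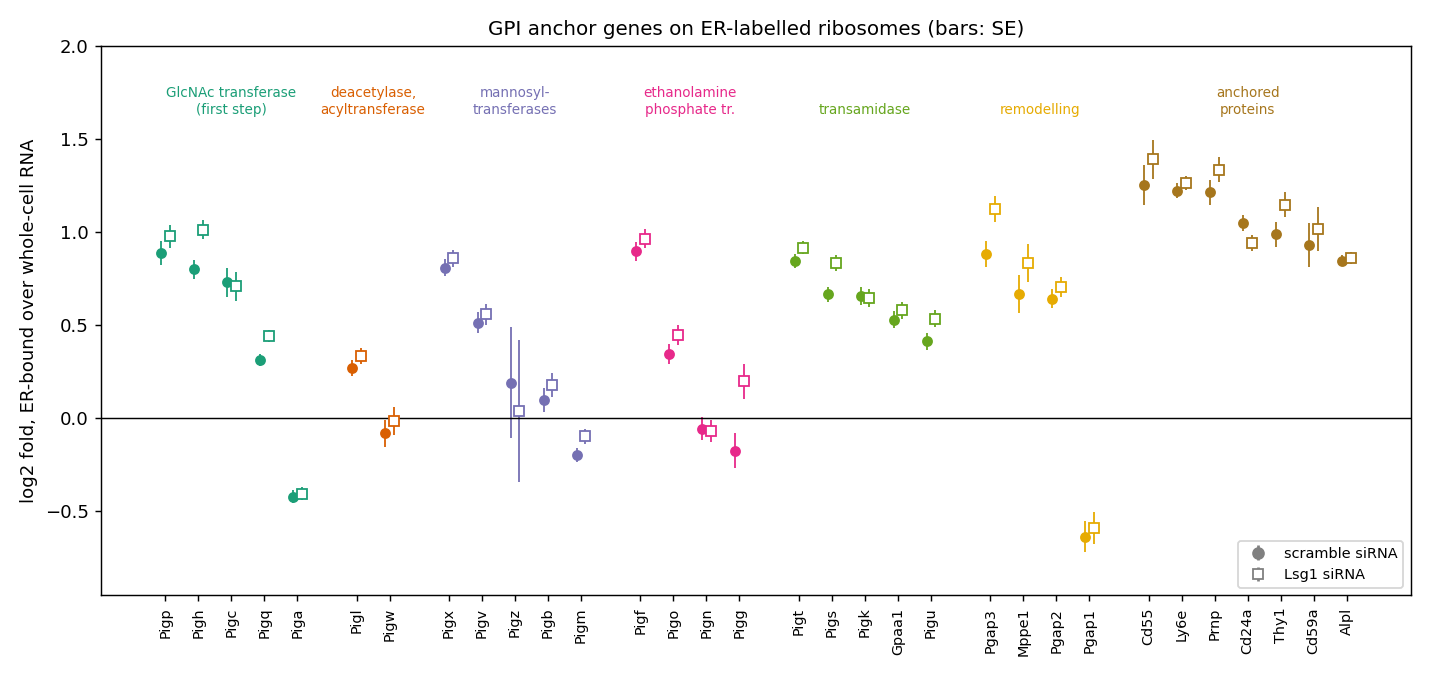
Log2 fold of ER-bound over whole-cell RNA for the 32 members, grouped by role; filled circles are scramble siRNA, open squares Lsg1 siRNA and bars are the SE of the fit. The 7 anchored proteins all lie above 0 in both treatments and overlap the highest enzymes. Piga, Pigm and Pgap1, which passed as lower, lie below 0 in both. Pign and Pigw in both treatments and Pigg in scramble cells also lie below 0 but did not pass.

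The anchored proteins were higher on ER-labelled ribosomes without exception, 7 of 7, with a median log2 fold of 1.05 and a range of 0.85 to 1.251. Cd55, the decay-accelerating factor that limits complement on cell surfaces, stood at 8.49, 8.30 and 7.80 CPM in the ER-bound libraries against 4.04, 3.06 and 3.31 CPM in whole-cell RNA. The log2 fold of Cd55 was 1.251 (± 0.107 SE, edgeR's adjusted p = 1.18e-08), the largest of the 32, and the groups did not overlap. Alpl, the alkaline phosphatase, had the smallest fold of the class although it was the most abundant member. It stood at 283.5, 275 and 268 CPM against 151, 153 and 156 CPM, a log2 fold of 0.85 (± 0.03 SE, edgeR's adjusted p = 3.00e-13) with every ER-bound library above every whole-cell one.

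Between these lay Ly6e (1.22), the prion protein Prnp (1.21), the mucin-like Cd24a (1.05), Thy1 (0.99) and Cd59a (0.93). Ly6e, a member of the Ly6 family, stood at 180 to 196 CPM on ER-labelled ribosomes and 78.7 to 82.2 CPM in whole-cell RNA. Cd59a has a close paralog, Cd59b, and reads that the copies share could be split or dropped in counting. Of the 25 enzymes and subunits 17 were higher, 3 lower and 5 did not pass, with a median of 0.51. The classes touched, since Pigf (0.90), Pigp (0.89) and Pgap3 (0.88) exceeded Alpl. The gap between the classes was not tested.

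**Figure D3:**
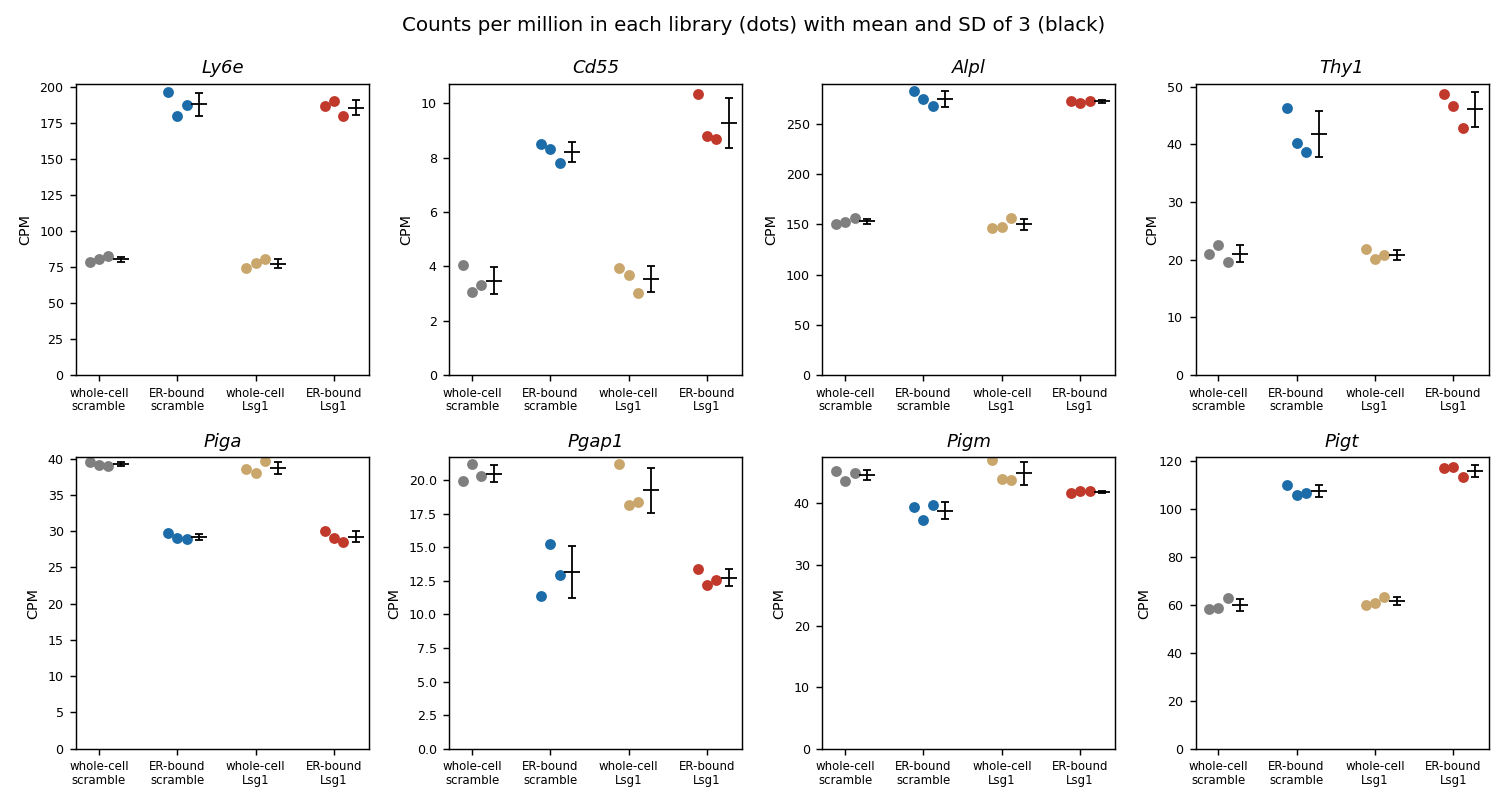
CPM in each of the 12 libraries for 4 anchored proteins (Ly6e, Cd55, Alpl, Thy1) and 4 enzymes or subunits (Piga, Pgap1, Pigm, Pigt); dots are libraries, black marks are the mean and SD of 3. ER-bound dots lie above whole-cell dots for the anchored proteins and Pigt and below them for Piga, Pgap1 and Pigm, in both siRNA groups.

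The ends of the coding sequences were compared between the anchored proteins and the enzymes. A protein bound for GPI anchoring carries a hydrophobic signal at each end, and codons with T as their second base encode the hydrophobic residues phenylalanine, leucine, isoleucine, methionine and valine. The last 25 codons before the stop are shown for 4 of them and the first 25 codons for Ly6e, with those codons in capitals, because these ends are the part of the mRNA that encodes both signals.
Ly6e, first 25 codons: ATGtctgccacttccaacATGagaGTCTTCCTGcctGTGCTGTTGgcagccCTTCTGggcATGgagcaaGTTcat
Ly6e, last 25 codons: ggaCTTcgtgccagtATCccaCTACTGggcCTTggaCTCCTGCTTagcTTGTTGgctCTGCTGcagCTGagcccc
Cd55, last 25 codons: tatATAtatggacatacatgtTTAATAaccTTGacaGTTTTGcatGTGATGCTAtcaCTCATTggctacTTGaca
Thy1, last 25 codons: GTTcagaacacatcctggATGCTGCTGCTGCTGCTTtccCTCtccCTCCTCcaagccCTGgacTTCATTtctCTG
Cd59a, last 25 codons: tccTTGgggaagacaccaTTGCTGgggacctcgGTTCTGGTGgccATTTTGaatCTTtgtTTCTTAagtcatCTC
Such codons made up 13, 12, 14 and 12 of the last 25 in Ly6e, Cd55, Thy1 and Cd59a. Across all 7 anchored proteins the number was 8 to 15 of 25, and the longest run free of charged residues spanned 20 to 25 codons. These features were not particular to them: the last 25 codons of the enzymes Pigv and Gpaa1 held 12 and 13 T-second codons with uncharged runs of 24 codons, and those of Pigk held 15 T-second codons. By a hydropathy measure (a 19-codon window averaging at least 1.6 on the Kyte-Doolittle scale), Ly6e and Cd59a had a stretch near each end. Cd55, Prnp and Thy1 had a single stretch near the end, and Alpl and Cd24a a single one at the start, so the measure did not mark every signal. The sequences are from the GENCODE annotation on GRCm38, an older build than the one the counts used.

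Members on both sides of 0 were found within the transferase that adds N-acetylglucosamine to phosphatidylinositol, the entry step of the pathway on the cytosolic face. Its catalytic subunit Piga was lower on ER-labelled ribosomes, while its partner subunits Pigp (0.89), Pigh (0.80), Pigc (0.73) and Pigq (0.31) were all higher. Piga stood at 29.7, 29.1 and 28.9 CPM in the ER-bound libraries against 39.5, 39.1 and 39.0 CPM in whole-cell RNA. The ranges were narrow and far apart, and the log2 fold was -0.42 (± 0.03 SE, edgeR's adjusted p = 7.13e-09). Pigp stood at 20.6, 17.9 and 18.8 CPM against 11, 9.88 and 10.1 CPM (edgeR adjusted p = 1.13e-09), so subunits of 1 complex lay on opposite sides of 0. Exons on the opposite strand cover 16.4% of the exon bases of Pigp (Ttc3) and 15.8% of those of Pigq.

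The coding sequence of Piga differs from that of Ly6e at both ends. The first and last 25 codons of Piga are shown to set beside those of Ly6e, again with T-second codons in capitals.
Piga, first 25 codons: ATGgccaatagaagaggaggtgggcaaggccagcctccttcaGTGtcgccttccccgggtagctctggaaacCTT
Piga, last 25 codons: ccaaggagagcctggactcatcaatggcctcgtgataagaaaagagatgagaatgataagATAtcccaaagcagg
Piga had 3 such codons among its first 25 and 1 among its last 25. Its partner subunits, all higher on ER-labelled ribosomes, held 5 (Pigh), 6 (Pigc), 10 (Pigp) and 10 (Pigq) among the first 25. A start with few such codons was thus also found in higher members. Of the 485 codons of Piga, the first stretch by the same hydropathy measure began at codon 417, which leaves 68 codons after that start. It was the sole such stretch in Piga. By this measure late first stretches were also found in members that were higher on ER-labelled ribosomes. These were Cd55 (codon 369 of 390), Prnp (231 of 254), Thy1 (136 of 162) and Pigx (112 of 150). The value of Pigx rests on a transcript of 818 bases, while its exons cover 2398 bases, and may depend on that choice. The first 25 codons of Cd55, Prnp and Thy1 held 8, 10 and 11 T-second codons. As anchored proteins they carry a start signal, which the measure did not mark, so their late values may reflect its cutoff. Whether the position of the stretch goes with the folds was not tested.

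The deacetylase Pigl, which acts next, was higher with a small fold, at 45.3, 45.5 and 46.1 CPM against 37.5, 36.4 and 39.5 CPM (log2 fold 0.27 ± 0.04 SE, edgeR's adjusted p = 2.60e-05). The inositol acyltransferase Pigw stood at 6.92, 7.58 and 7.31 CPM against 7.28, 7.74 and 8.02 CPM, with overlapping groups and a log2 fold of -0.08 (± 0.07 SE, edgeR's adjusted p = 0.358). Pigl was thus the sole enzyme of this pair to pass.

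Among the mannosyltransferases, Pigm adds the first mannose and Pigx is the partner that stabilises it. Pigx stood at 44.5, 43.5 and 41.1 CPM against 23.9, 24.7 and 25.1 CPM, a log2 fold of 0.81 (± 0.05 SE, edgeR's adjusted p = 4.56e-11). Pigm stood at 39.4, 37.2 and 39.7 CPM against 45.2, 43.6 and 44.8 CPM, a log2 fold of -0.20 (± 0.04 SE, edgeR's adjusted p = 1.77e-04). Each separated without overlap, but the lower value of Pigm depends on the adjustment for length: with an offset for GC content and transcript length Pigm stood at 0.25 (edgeR adjusted p = 2.40e-05) and Pigx at 0.72, on the same side. Pigv, which adds the second mannose, was higher (0.51). Pigb, which adds the third, did not pass (0.10 ± 0.06 SE, edgeR's adjusted p = 0.214), although it did without ER-bound scramble replicate 1 (0.16, edgeR adjusted p = 0.0436). Opposite-strand genes, Ccpg1 among them, cover 27.1% of its exon bases, and the strand setting of the counting is not given in the sources used here. Pigz averaged 0.29 CPM in the ER-bound and 0.26 CPM in the whole-cell libraries and did not pass (0.19, SE 0.30).

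The ethanolamine phosphate transferases were split as well, with 2 higher and 2 that did not pass. Pigf, a small partner subunit, stood at 42.4, 40.0 and 40.0 CPM against 21.2, 22.6 and 22.0 CPM (log2 fold 0.90 ± 0.05 SE, edgeR's adjusted p = 5.32e-11). An opposite-strand gene, Rhoq, covers 31.6% of the exon bases of Pigf. Its catalytic partner Pigo was higher by less (0.35) and Pign, which modifies the first mannose, did not pass (-0.06, SE 0.06). Pigg, the other enzyme that works with Pigf, stood at 14.1, 20.7 and 19.8 CPM against 20.4, 20.9 and 20.3 CPM, so replicate 1 of the ER-bound libraries stood apart. The log2 fold of Pigg was -0.18 (± 0.09 SE, edgeR's adjusted p = 0.119). Without that library it was -0.03 (edgeR adjusted p = 0.705), without ER-bound scramble replicate 2 it was -0.30 (edgeR adjusted p = 0.0112) and without replicate 3 it was -0.25 (edgeR adjusted p = 0.0328).

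All 5 transamidase subunits were higher on ER-labelled ribosomes, with a median log2 fold of 0.66. Pigt stood at 110, 105.5 and 106.5 CPM against 58.1, 58.6 and 62.6 CPM, the largest fold of the complex (0.84 ± 0.04 SE, edgeR's adjusted p = 1.68e-12). Pigu was lowest in the complex, at 31.8, 31.2 and 30.4 CPM against 23.7, 22.5 and 24.0 CPM (0.41 ± 0.05 SE, edgeR's adjusted p = 3.44e-07). Pigs (0.67), the catalytic subunit Pigk (0.66) and Gpaa1 (0.53) lay between them. In each subunit the ER-bound libraries lay above all whole-cell ones.

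Remodelling enzymes act once the anchor is on its protein. Pgap3, which removes a fatty acid from the lipid in the Golgi, stood at 8.61, 8.58 and 7.95 CPM against 4.68, 4.39 and 4.6 CPM (log2 fold 0.88 ± 0.07 SE, edgeR's adjusted p = 4.80e-09). Mppe1 (0.67), which trims a side-chain ethanolamine phosphate, and Pgap2 (0.64), which acts in the refilling of the lipid, were also higher. Pgap1, the inositol deacylase of the ER, was the lowest of all members. It stood at 11.4, 15.2 and 13 CPM against 20.0, 21.2 and 20.3 CPM, a log2 fold of -0.64 (± 0.08 SE, edgeR's adjusted p = 2.35e-06) without overlap.

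Pgap1 differs from Piga in its sequence, and its start is shown for that contrast, with T-second codons in capitals.
Pgap1, first 25 codons: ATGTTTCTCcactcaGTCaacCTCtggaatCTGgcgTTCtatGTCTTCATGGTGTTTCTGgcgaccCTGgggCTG
It held 15 T-second codons among the first 25 with no charged residue, and its first hydrophobic stretch began at codon 5. The lower value of Pgap1 was not kept with the GC and length offset (0.15, edgeR adjusted p = 0.0514, and 0.15 with adjusted p = 0.0140 when the replicate block was added).

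Transcript length moved with these values. Across the 32 members the log2 fold was lower at greater log2 transcript length (Pearson's r = -0.61, Spearman's rho = -0.58), and across 14674 tested protein-coding genes it did so too (r = -0.37, rho = -0.43). In the 32 members it was also lower at a greater log2 number of coding codons (r = -0.66, rho = -0.68). The same held for the number of hydrophobic stretches (r = -0.56, rho = -0.59, and r = -0.41 in the 25 enzymes and subunits). These are descriptions across genes of the same libraries, and genes are not replicates. The members of at most 1000 bases were Pigp, Pigx and Pigf, all above the median of 0.30 for genes of that length, of which 62.8% were higher. The members above 7000 bases were Pigm (7554 bases) and Pgap1 (10583 bases), and of all genes of that length 67.8% were lower, with a median of -0.47. Piga, at 3597 bases, falls in a range whose median was -0.06.

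With an offset for the trends of GC content and length, Piga remained lower (-0.32, edgeR adjusted p = 2.00e-07). Pigm turned to 0.25 (edgeR adjusted p = 2.40e-05) and Pgap1 to 0.15 (edgeR adjusted p = 0.0514), so the direction of these depends on that adjustment. Pign turned to 0.17 (edgeR adjusted p = 0.0117). Of the 32 members, 26 were then higher and 1 lower, with a median of 0.52, and the anchored proteins had a median of 1.01 against 0.32 for the enzymes and subunits. In the same fit 4814 of all 17702 tested genes were higher and 5316 lower, with a median of -0.007.

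**Figure D4:**
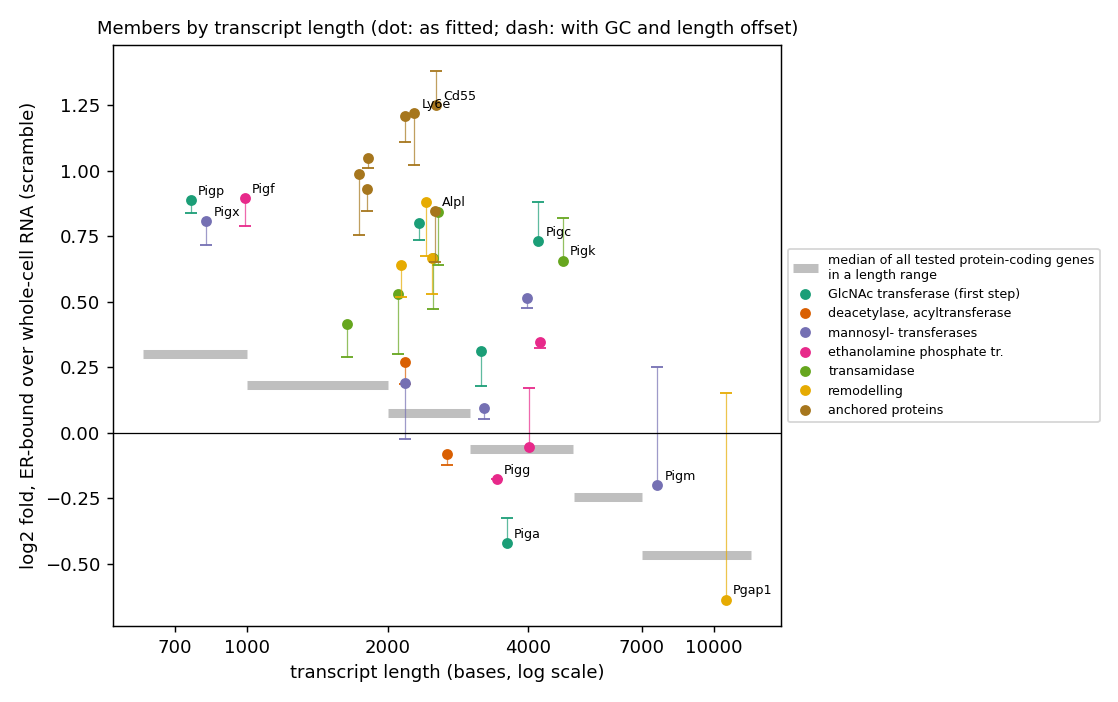
Log2 fold of ER-bound over whole-cell RNA in scramble cells against transcript length (log axis) for the 32 members; dots are fitted values, dashes the values with the GC and length offset, and grey bars the median of all tested protein-coding genes in 6 length ranges. Pigm, Pgap1 and Pign move from below 0 to above it with the offset and Pigz from above to below, while Piga, Pigg and Pigw stay below.

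In cells with Lsg1 siRNA 25 members were higher on ER-labelled ribosomes, 3 lower and 4 did not pass, with a median log2 fold of 0.71. All tested genes gave 30.6% higher and 29.8% lower by edgeR. The lower members were again Piga (-0.41), Pgap1 (-0.59) and Pigm (-0.10). Pigm passed with an edgeR adjusted p of 0.0320 and no longer passed when ER-bound Lsg1 replicate 1 (0.0613), ER-bound Lsg1 replicate 2 (0.0541) or whole-cell Lsg1 replicate 1 (0.0552) was left out. Every ER-bound library lay above every whole-cell one in 26 members and below in 3 (33% and 31.5% of tested genes). Piga stood at 30.0, 29.1 and 28.5 CPM against 38.6, 38.0 and 39.6 CPM, close to its scramble values. Pgap1 stood at 13.4, 12.2 and 12.6 CPM against 21.2, 18.2 and 18.4 CPM.

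The member added was Pigb (0.18, edgeR adjusted p = 0.0256), whose call was lost in 6 of the 12 fits that left out 1 library. Its edgeR adjusted p was 0.273 without ER-bound Lsg1 replicate 3, 0.125 without whole-cell Lsg1 replicate 3, 0.0662 without whole-cell Lsg1 replicate 2, 0.0559 without ER-bound scramble replicate 3, 0.0662 without whole-cell scramble replicate 1 and 0.0665 without whole-cell scramble replicate 3. Pigg, which did not pass (0.20, edgeR adjusted p = 0.0763), did so without ER-bound scramble replicate 1 (edgeR adjusted p = 0.00148) and with the replicate block (0.0372). The 7 anchored proteins were again all higher, from 0.86 for Alpl to 1.39 for Cd55, with a median of 1.15. Cd55 stood at 10.4, 8.79 and 8.68 CPM against 3.95, 3.66 and 3.02 CPM. Pigh stood at 24.9, 24.3 and 25.3 CPM against 11.6, 12.7 and 12.6 CPM, the highest fold of its complex (1.012).

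Lsg1 siRNA was then set against scramble siRNA within each fraction. On ER-labelled ribosomes 3 members were higher with Lsg1 siRNA, Pigh, Pigq and Pigs, and 0 were lower, where 2.63% of tested genes were higher and 1.38% lower by edgeR. At an unadjusted p under 0.05 there were 15 of the 32 members, against 17.2% of tested genes. In all, 24 of the 32 log2 folds were positive, against 9449 of the 17702 tested genes, with a median of 0.08 against 0.01 for all tested genes. The groups did not overlap in 13 members that lay above and 2 that lay below (12.5% and 8.95% of tested genes).

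Pigh, a subunit of the entry-step transferase, stood at 24.9, 24.3 and 25.3 CPM with Lsg1 siRNA against 20.4, 20.0 and 20.3 CPM with scramble siRNA. Its log2 fold was 0.29 (± 0.05 SE, edgeR's adjusted p = 0.00185), and it passed in each of the 12 fits that left out 1 library. Opposite-strand exons of Plekhh1 cover 27.3% of its exon bases. Pigq, another subunit of that enzyme, stood at 90, 89.9 and 88.3 CPM against 81.0, 82.2 and 79.7 CPM (0.14 ± 0.03 SE, edgeR's adjusted p = 0.0171). The transamidase subunit Pigs stood at 94.7, 96.3 and 90.8 CPM against 88.1, 82.9 and 81.7 CPM (0.16 ± 0.04 SE, edgeR's adjusted p = 0.0343).

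The calls of Pigq and Pigs were close to the threshold. Pigs passed in 1 of the 12 fits that left out 1 library, the one without ER-bound scramble replicate 1 (edgeR adjusted p = 0.0124), and its edgeR adjusted p was 0.0566 to 0.229 in the other 11. Pigq lost its call without ER-bound Lsg1 replicate 1, 2 or 3, ER-bound scramble replicate 2 or 3, whole-cell Lsg1 replicate 2 or whole-cell scramble replicate 1, with an edgeR adjusted p of 0.0531 to 0.129. In the fits that lost the call the log2 folds were 0.12 to 0.14 for Pigq and 0.12 to 0.17 for Pigs, near the values with all libraries. Same-numbered ER-bound libraries deviated together, and with the replicate number as a block 8 members were higher (Pigg, Pigh, Pigl, Pigq, Pigs, Pigt, Thy1 and Prnp) and Cd24a was lower. Over all 17702 tested genes the block also raised the counts, to 939 higher and 524 lower from 465 and 245. The blocked edgeR adjusted p was 5.41e-04 for Pigh, 0.00615 for Pigq, 0.00325 for Pigs, 0.0201 for Pigt, 0.0261 for Pigl, 0.0313 for Pigg, 0.0321 for Prnp, 0.0413 for Thy1 and 0.0212 for Cd24a. Cd24a, called lower with the block, stood at 42.9, 41.1 and 39.6 CPM against 46.1, 44.7 and 46.1 CPM, a log2 fold of -0.15 that did not pass without the block (edgeR adjusted p = 0.0535). Without 1 library its call came and went: it passed without ER-bound Lsg1 replicate 1 (0.0392), whole-cell Lsg1 replicate 1 (0.0381), whole-cell Lsg1 replicate 3 (0.0212) or whole-cell scramble replicate 3 (0.0484). Of the members added by the block, Prnp stood at 21.0, 19.9 and 19.3 CPM against 18.7, 17.4 and 17 CPM, without overlap. Thy1 stood at 48.7, 46.6 and 42.8 CPM against 46.2, 40.3 and 38.7 CPM, with overlap, and without ER-bound scramble replicate 1 it passed with no block (0.22, edgeR adjusted p = 0.0193). Pigg likewise passed with no block without ER-bound scramble replicate 2 (0.38, edgeR adjusted p = 0.0446). It did not pass without ER-bound scramble replicate 1, the library that stood apart (14.1 CPM against 20.7 and 19.8 CPM). The log2 folds of Pigg between same-numbered ER-bound libraries ran from 0.09 to 0.69. Piga gave a log2 fold of -0.0018 (SE 0.04), Ly6e -0.02 (SE 0.04) and Alpl -0.01 (SE 0.03).

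**Figure D5:**
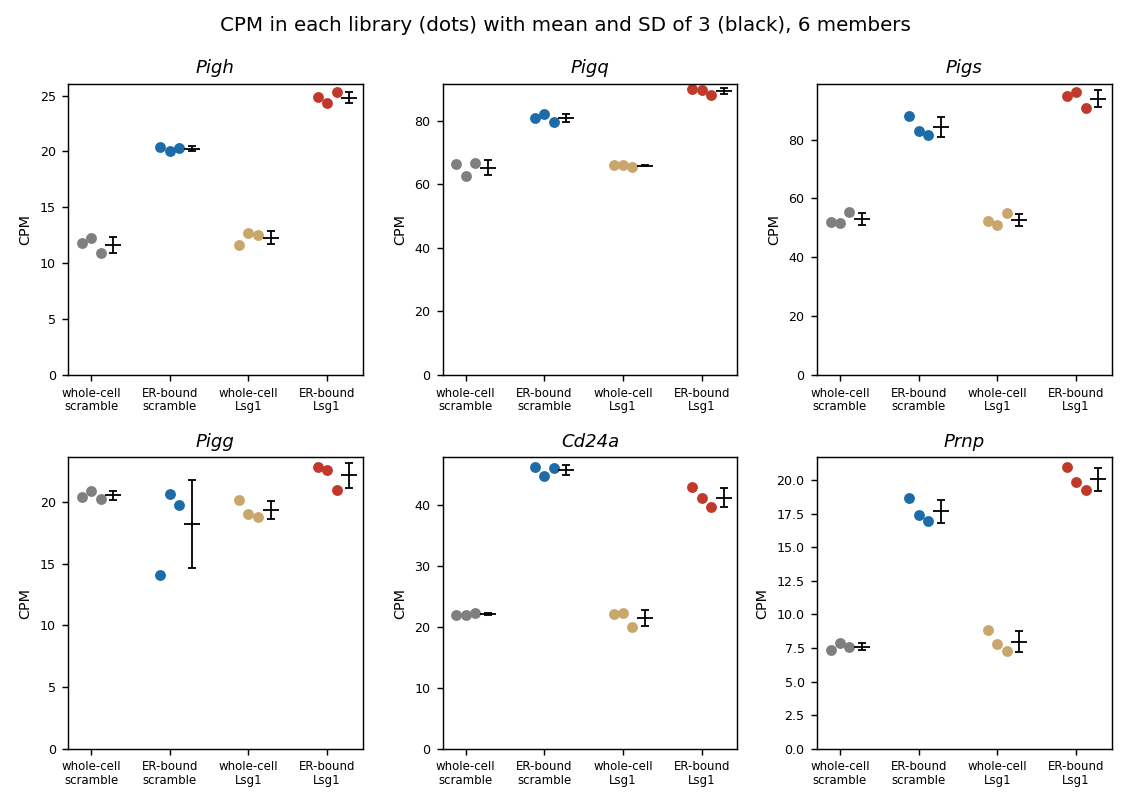
CPM in each of the 12 libraries for Pigh, Pigq, Pigs, Pigg, Cd24a and Prnp; dots are libraries, black marks are the mean and SD of 3. ER-bound dots with Lsg1 siRNA lie above those with scramble siRNA for Pigh, Pigq, Pigs, Pigg and Prnp and below them for Cd24a, while ER-bound scramble replicate 1 of Pigg stands apart.

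In whole-cell RNA 0 members passed between the siRNAs by edgeR's test, where 0% of all tested genes passed. The groups separated upward in 0 members and downward in 4 (5.23% and 5.18% of tested genes). DESeq2 and limma-voom also called 0 members, and 0 members had an unadjusted p under 0.05 (4.13% of tested genes did). Pigh stood at 11.6, 12.7 and 12.6 CPM with Lsg1 siRNA against 11.8, 12.3 and 10.9 CPM with scramble siRNA, with overlapping groups. Pigz had the largest fold (-0.74, SE 0.35), at 0.13, 0.20 and 0.12 CPM against 0.29, 0.23 and 0.26 CPM, a level at which counting error is large.

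The test of whether the ER-bound share changed with the siRNA, the interaction of fraction and siRNA, passed for 0 members by edgeR, and 0.0226% of tested genes passed. At an unadjusted p under 0.05 there were 5 members: Pigg (0.37), Pgap3 (0.24), Pigh (0.21), Pigs (0.17) and Pigq (0.13), against 6.89% of tested genes. Their edgeR adjusted p lay between 0.591 and 0.680. DESeq2 and limma-voom called 0 members. A change of the ER-bound share that differs from the whole-cell change was therefore not shown for any member, including Pigh. Pigg passed in a fit without the low-count filter (0.36, edgeR adjusted p = 0.0103). With the filter and without ER-bound scramble replicate 1 its value was 0.22 (edgeR adjusted p = 0.381).

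Other genes of the pathway were compared in the same way in scramble cells. Of all tested genes 29.8% were higher and 29.1% lower in that comparison. Of 14 further pathway genes 11 were higher, 1 was lower and 2 did not pass, with a median of 0.68. The p24 cargo receptors Tmed10 (1.00) and Tmed9 (1.10), which carry anchored proteins out of the ER, were among those with the smallest p. So were Mpdu1 (1.02), needed for use of dolichol-linked mannose, and the glucosaminylphosphatidylinositol scramblase Clptm1l (0.63). The lower gene was Dpm1 (-0.26, edgeR adjusted p = 0.0104), the catalytic subunit of dolichol-phosphate-mannose synthase, and its membrane partners Dpm2 (0.58) and Dpm3 (0.93) were higher. These 3 were chosen after their values were seen.

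The enzymes that build the N-glycan precursor, a parallel ER pathway, were higher for 16 of 19 and lower for 2, with a median of 0.51. Among all tested genes 29.8% were higher and 29.1% lower. In the N-glycan list the order by p was as follows. The smallest p belonged to Alg13 (-0.51, edgeR adjusted p = 7.25e-12), a catalytic glycosyltransferase subunit, then to Srd5a3 (1.00), Dolpp1 (0.71) and Alg5 (0.59). Alg14, the membrane partner of Alg13, was higher (0.95), and it was named after its value was seen. The other lower gene of this list was Alg10b (-0.13, edgeR adjusted p = 0.00584). Piga, Dpm1 and Alg13 were thus each lower while the named membrane partners in their complexes were higher. This likeness was noticed after the values were seen and was not tested. It leaves out the lower genes Alg10b, Pigm and Pgap1, and Pigm and Pgap1 each held 7 hydrophobic stretches.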

How the data were processed

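Poly-A RNA was sequenced as 12 libraries (3 biological replicates in each of 4 groups), prepared with a directional (strand-marking) kit per the labels' protocols. The authors deposited raw counts per gene for each library. Per the submitters' processing notes, the alignment used STAR 2.7.9a on GRCm39, HTSeq 0.11.2 gave the gene counts, and DESeq2 is listed without a version. For the annotation release and the strand setting, nothing is given in the sources used here. Reads where genes overlap on opposite strands may therefore have been dropped as ambiguous or given to the wrong gene. The 5 summary lines of each table were left out of library sizes and tests. Reads outside any feature were 2.65% to 5.26%, those with several alignments 6.09% to 8.23%, and ambiguous ones 0.97% to 1.16%. Gene names, transcript lengths and coding sequences came from GENCODE on GRCm38, matched by ID without version (52083 of 55416 IDs, 94.0%). No coordinates are given because the builds differ. Lengths are those of the principal coding transcript, taken among transcripts whose coding sequence starts with ATG.

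Counts were scaled by TMM, filtered with filterByExpr and tested with edgeR 4.0.16 in R 4.3.3 (quasi-likelihood F-test, 1 mean per group over all 12 libraries, 8 residual df, a biological coefficient of variation of 4.42%, Benjamini-Hochberg over 17702 genes, threshold 0.05). P-values measure the spread between these cultures of 1 line. Lists are described by counts and medians, with no list test. Hydrophobic stretches were found from translated coding sequences, since no reference protein table was used here. The members and lists were chosen with earlier results of these data known.

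Values per library are given for members that passed between siRNAs or were lower on ER-labelled ribosomes, and for the highest and lowest fold of each role class, plus a few that other results turn on (Cd24a, Pigz). Of each other list the 4 genes with the smallest p are named, plus some named after their values were seen.

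ER-bound and whole-cell libraries of a number come from the same lysate. For the siRNA comparisons the labels give only a shared number. The main test gave each group 1 mean and used neither pairing, which entered only the fits with the replicate block. Over 9251 genes with a mean of at least 10 CPM, ER-bound libraries that share a number deviated from their groups together (r = 0.399, 0.156 and 0.321). Over all tested genes the values were 0.173, 0.00727 and 0.144, and in whole-cell RNA 1 pair was below 0 (-0.00409).

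The fits were repeated with scaling by DESeq2 size factors or by library totals, without a filter or with a stricter one (3 or more libraries at 2 CPM), by DESeq2 1.42.0 and by limma-voom (limma 3.58.1), on the compared groups alone, with a replicate block, with an offset for trends in GC content and length (5-df splines), with block plus offset, without each library, and without a pair of them (replicate 3 of ER-bound scramble and of whole-cell Lsg1). The test was checked on simulated counts: for ER-bound against whole-cell RNA in scramble cells (17461 genes) it recovered 65.7% of 1.25-fold, 85.1% of 1.5-fold and 98.5% of 2-fold changes, and for the siRNAs on ER-bound RNA (17459 genes) 64.2%, 94.0% and 98.5%. False calls numbered 9 and 16. Only 66 or 67 genes were changed at each fold, far fewer than were called between ER-bound and whole-cell RNA. Folds under 1.25, such as those of Pigq and Pigs between siRNAs, were not simulated. Python 3.11.15 and matplotlib 3.10.9 drew the figures.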

Additional observations from a re-analysis of the deposited data

How the results depend on the processing

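The count of members higher on ER-labelled ribosomes was 24 to 27 in scramble cells and 24 to 28 in Lsg1 siRNA cells over all alternatives. Over all genes, 4623 to 6438 were higher and 4144 to 5495 lower in scramble cells. In Lsg1 siRNA cells 4627 to 6686 genes were higher and 4142 to 5697 lower. Leaving out 1 library gave 24 to 25 higher and 3 to 4 lower in scramble cells, and 24 to 26 higher and 2 to 3 lower in Lsg1 siRNA cells. With the GC and length offset, alone or with the replicate block, 1 member was lower in both (Piga). Pigm then stood at 0.25 and 0.33 (scramble, Lsg1 siRNA; with the block 0.25 and 0.33), Pgap1 at 0.15 and 0.18 (block 0.15 and 0.17), Pign at 0.17 and 0.15 (block 0.17 and 0.15) and Pigz at -0.022 and -0.18 (block -0.0367 and -0.15). Scaling by library totals put the all-gene median at 0.11 in both, with 6438 genes higher and 4144 lower in scramble cells and 6686 and 4142 in Lsg1 siRNA cells. Under them Pign stood at 0.0225 and 0.0184, and Pigw at 0.0738 in Lsg1 siRNA cells, where Pigm no longer passed (-0.01, edgeR adjusted p = 0.836). Without the 2 libraries, Pigw and Pigz in Lsg1 siRNA cells stood at 0.0185 and -0.13, and leaving out 1 library put them at -0.0747 to 0.0384 and at -0.109 to 0.338.

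Between siRNAs on ER-bound RNA the count of higher members was 1 with only the groups compared, 8 with the replicate block, 9 with block and offset, 4 by DESeq2 (Pigg added), 1 without the 2 libraries and 1 to 5 without 1 library. The lower count was 1 (Cd24a) with no filter, the stricter filter, limma-voom, the block, the offset, and both, and 0 to 1 without 1 library. Counts over all genes there ran from 161 to 1103 higher and from 117 to 715 lower, with 465 and 245 as reported. The all-gene counts were 939 and 524 with the block and 1103 and 715 with block and offset. By DESeq2 they were 450 and 268, and with only the groups compared 216 and 159. In whole-cell RNA 0 members were called under every alternative, and over all genes at most 24 higher and 4 lower. For the interaction 1 member (Pigg) was called without the filter and 0 otherwise. The replicate block changed no call of ER-bound against whole-cell RNA in scramble cells and added Pigg (0.20, edgeR adjusted p = 0.0372) in Lsg1 siRNA cells. The cause of these moves was not tested. Members below about 1 CPM (Pigz) are limited by depth.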

Other observations

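Other GPI-anchored proteins, from a list wider than the 7 above, were also carried more by ER-labelled ribosomes. By edgeR 29.8% of all tested genes were higher in scramble cells and 29.1% lower. Of 91 listed 62 passed the low-count filter, and of these 53 were higher in scramble cells and 9 did not pass, with a median log2 fold of 0.74. Some may have passed the filter only through ER-bound libraries, where they were high. Alppl2 (1.77) stood at 0.46 CPM in ER-bound and 0.13 CPM in whole-cell scramble libraries, and Xpnpep2 (1.50) at 0.44 and 0.15 CPM. The genes with the smallest p were the glypican Gpc1 (0.93), the folate receptor Folr1 (1.03), the Nodal co-receptor Tdgf1 (0.99) and the hyaluronidase Hyal2 (0.97). Tdgf1 was the most abundant, with 2491 ± 161.5 CPM (SD, n = 3) in ER-bound and 1250 ± 33 CPM in whole-cell libraries.

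By family, and chosen after their values were seen, all 5 glypicans that were tested were higher: Gpc1 (0.93), Gpc4 (0.79), Gpc6 (0.69), Gpc2 (0.66) and Gpc3 (0.47). All 5 ephrin-A ligands were higher too, from 0.49 for Efna5 to 1.27 for Efna3. The repulsive guidance molecules Rgma (0.79) and Rgmb (0.52) were higher, whereas their relative Hfe2 was not (-0.06, SE 0.10). Of the GDNF family co-receptors Gfra2 (0.55), Gfra1 (0.49) and Gfra4 (0.42) were higher and Gfra3 did not pass (0.21, SE 0.38). Lypd6, a Ly6-domain protein, did not pass (0.03, SE 0.16).

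Between siRNAs on ER-bound RNA 4 of these 62 were higher with Lsg1 siRNA by edgeR, where 2.63% of all tested genes were higher and 1.38% lower: Gpc4 (0.26, edgeR adjusted p = 0.00109), Ly6a (0.48, 0.00525), Gpc1 (0.15, 0.0224) and Tex101 (0.49, 0.0301).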
